A study of Mus musculus with 2 samples.

Results

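Of the inflammatory chemokines, 7 genes were followed here, namely Ccl2, Ccl3, Ccl4, Ccl6, Ccl9, Cxcl2 and Cxcl3, which attract monocytes and neutrophils. They were chosen by name from the 26124 genes of the matrices, and all 7 were found there under 1 row each. The cells were bone marrow cells of C57BL/6 mice aged 8 to 10 weeks. They had been depleted of lineage-positive cells and grown with 20 ng/ml GM-CSF, a growth factor under which progenitors become neutrophils, macrophages and dendritic cells. On culture day 3, albumin (control) or 300 µM heme-albumin (heme) was added. Each group was 1 library of single cells, made from 5 cultures whose cells carried DNA-tagged antibodies for days 0, 3, 4, 5 and 7. The cultures of days 0 and 3 had not been exposed to heme. The study text also names hours of exposure that do not match day 5, so culture days are used. With 1 library in each group, no difference has a replicate check, and every interval (95%, exact) covers counting error only.

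Chemokines are small secreted proteins that guide leukocytes along a gradient through receptors on the moving cell. Ccl2 calls in inflammatory monocytes through the receptor Ccr2. Ccl3 and Ccl4, also known as macrophage inflammatory proteins, attract monocytes and macrophages. Ccl6 and Ccl9 are CC chemokines of myeloid cells in rodents that act through Ccr1. Cxcl2 and Cxcl3 are CXC chemokines that draw neutrophils through Cxcr2, and macrophages and neutrophils make them quickly after a danger signal. In many cells the NF-kB transcription factors switch on Ccl2, Ccl3, Ccl4, Cxcl2 and Cxcl3.

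The members lie in gene clusters. In the GENCODE annotation of GRCm38, Cxcl3 spans chr5:90786103-90789600 and Cxcl2 spans chr5:90903871-90905938, both on the plus strand and 114.3 kb apart. Ccl9 (chr11:83572919-83578636) and Ccl6 (chr11:83587882-83593087) lie 9.2 kb apart on the minus strand. Ccl3 (chr11:83647844-83649355, minus strand) and Ccl4 (chr11:83662584-83664683, plus strand) are 13.2 kb apart in the same stretch. Ccl2 (chr11:82035571-82037453, plus strand) stands 1535.5 kb before Ccl9. The annotated genes Gm17268 and E230016K23Rik overlap Ccl2 and Ccl6 on the opposite strand, and the 3′ tags that were counted keep the strand.

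Promoter windows of RefSeq (GRCm38.p6) were at hand for 5 members, Cxcl2, Cxcl3, Ccl3, Ccl6 and Ccl9. The 250 bases before each start are shown to set the Cxcr2 ligands beside Ccl3, Ccl6 and Ccl9. Among all pairs of these 5 windows, Cxcl2 and Cxcl3 were most alike, with 67.6% of 250 bases identical in a global alignment, whereas the other pairs gave 54.8% to 61.2%. In the lines for Cxcl2 and Cxcl3 the capitals mark overlapping matches, on both strands, to GGGANNNNCC, the letters of an NF-kB site. In those for Ccl3, Ccl6 and Ccl9 they mark GGAAGT on either strand, the core that ETS factors of myeloid cells bind.
Cxcl2 (chr5:90903649-90903898, plus strand): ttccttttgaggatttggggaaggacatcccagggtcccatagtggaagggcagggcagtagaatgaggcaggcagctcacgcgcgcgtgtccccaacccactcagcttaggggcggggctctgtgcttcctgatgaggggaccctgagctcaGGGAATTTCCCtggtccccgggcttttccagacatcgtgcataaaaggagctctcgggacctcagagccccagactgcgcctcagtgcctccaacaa
Cxcl3 (chr5:90785851-90786100, plus strand): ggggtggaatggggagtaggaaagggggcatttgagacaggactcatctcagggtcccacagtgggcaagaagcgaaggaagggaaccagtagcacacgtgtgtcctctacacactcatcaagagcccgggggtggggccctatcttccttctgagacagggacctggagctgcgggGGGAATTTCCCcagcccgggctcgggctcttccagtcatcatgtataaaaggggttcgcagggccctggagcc
Ccl3 (chr11:83649379-83649628, minus strand): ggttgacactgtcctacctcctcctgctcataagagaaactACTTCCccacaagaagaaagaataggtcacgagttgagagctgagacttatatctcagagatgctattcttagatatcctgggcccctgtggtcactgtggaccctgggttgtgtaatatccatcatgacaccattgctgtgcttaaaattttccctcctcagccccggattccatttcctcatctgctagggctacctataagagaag
Ccl6 (chr11:83593088-83593337, minus strand): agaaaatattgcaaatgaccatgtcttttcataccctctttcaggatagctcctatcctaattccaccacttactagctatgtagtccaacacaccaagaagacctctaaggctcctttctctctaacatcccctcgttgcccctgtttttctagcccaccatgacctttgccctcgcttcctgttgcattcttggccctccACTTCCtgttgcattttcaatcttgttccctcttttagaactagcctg
Ccl9 (chr11:83578637-83578886, minus strand): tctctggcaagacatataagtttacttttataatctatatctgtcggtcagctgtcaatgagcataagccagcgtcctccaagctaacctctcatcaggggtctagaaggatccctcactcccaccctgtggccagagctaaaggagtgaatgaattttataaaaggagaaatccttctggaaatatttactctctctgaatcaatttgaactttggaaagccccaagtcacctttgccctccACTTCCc
The exact letters GGGAATTTCC are those of the match in the Cxcl3 window. Their presence there was thus given, and their share of windows is a description only. They began 97 bases before the start of Cxcl2 and 73 bases before that of Cxcl3. They were found in 29 of 32851 RefSeq windows of 300 bases (0.0883%), and the looser GGGANNNNCC was found in 20.7% of them. GGAAGT was found in 23.8% of all windows. The 3′ untranslated regions of the members held between 1 and 11 copies of ATTTA, the core of AU-rich elements through which cells shorten the life of cytokine mRNAs. Cxcl2 had 15.0 copies and Ccl3 had 12.2 copies per 1000 bases, above 99.5% and 99.2% of the 21186 genes with such a region, while Ccl9 had 2.03. These letters are a description of the sequence and do not show that a factor was bound.

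The control library held 12050 barcodes with a single tag and the heme library 14164, with 1716 to 3464 such cells in a culture. A culture summed between 19140367 and 75505515 unique molecular identifiers (UMIs, counts of single transcript molecules), and the median cell had 8850 to 19696. In all, 112 barcodes occurred in both libraries. Levels are given in CPM, the UMIs of a gene scaled to the total of its culture or cell group. The median gene was itself higher in the heme library, by 0.38, 0.35, 0.25 and 0.30 on the log2 scale on days 3, 4, 5 and 7, against which the ratios below are to be read. Free RNA was gauged in erythroid progenitors of day 0, cells with at least 2 UMIs each of Klf1 and Car1, which are not known to make these chemokines. In these cells the members stood at 1.79% to 3.99% of the mean of the library in the control and at 5.42% to 7.86% in the heme library, so that the background was higher in the heme library. It amounted to 15.2 CPM of Cxcl2 and 8.74 CPM of Cxcl3 in the heme library (414 cells, median 24693.5 UMIs) and to 3.23 and 1.36 CPM in the control library (482 cells, median 19682.5 UMIs).

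The first comparison asked which of these chemokines differed between the libraries after heme had been added. Opposite courses were seen, with Cxcl2 and Cxcl3 higher and Ccl2 lower in the heme library. On day 4, 2 of 7 members (Cxcl2 and Cxcl3) were at least 2-fold higher in the heme library, as were 11.1% of all 13106 genes with 20 or more UMIs, and 1 member (Ccl2) was at least 2-fold lower, as were 1.67%. On day 5, 3 members (Ccl9, Cxcl2 and Cxcl3) were at least 2-fold higher and Ccl2 was lower, where 10.5% and 3.56% of all genes were. On day 7 no member was 2-fold higher (15.2% of all genes) and 1 member, Ccl4, was 2-fold lower (7.32%). Before the exposure, on day 3, Cxcl2 and Cxcl3 were already at least 2-fold higher in the heme library (6.68% of all genes) and no member was lower (0.351%).

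**Figure D1:**
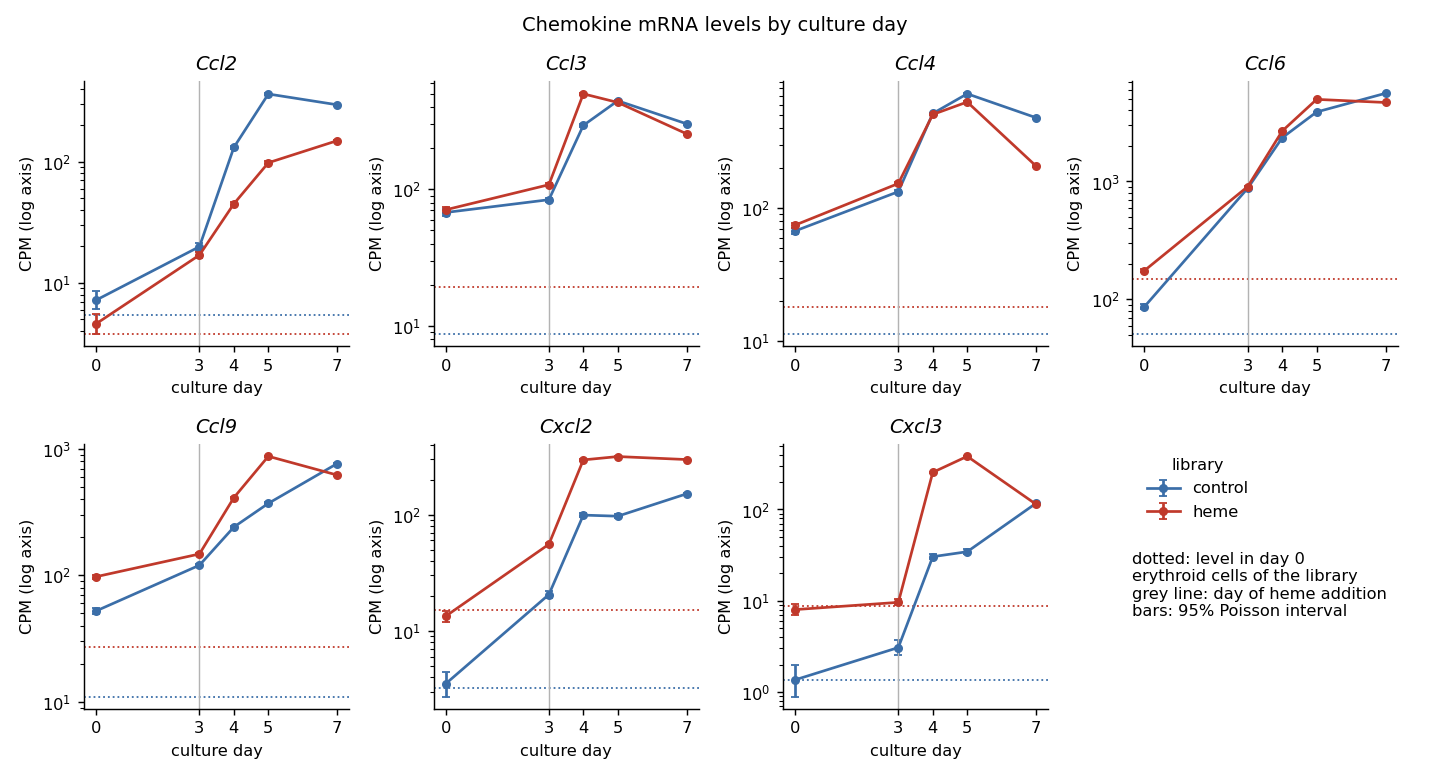
Levels of the 7 chemokines in CPM (log axes) against culture day for the control (blue) and heme (red) libraries, 1 culture a point, with 95% Poisson intervals; dotted lines give the level in day 0 erythroid cells of each library and the grey line the day of heme addition. Cxcl3 of the heme library stood close to the dotted line on days 0 and 3 and at 255 and 382 CPM on days 4 and 5, whereas Ccl2 was higher in the control library on all later days.

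Ccl2, the ligand of Ccr2, was the member with the lower level in the heme library on each day after the exposure. In the control library it stood at 7.21, 19.9, 131, 361 and 295 CPM on days 0, 3, 4, 5 and 7. The heme cultures gave 4.60, 17.0, 44.9, 97.9 and 149 CPM on these days. The control values were 2.92 times (2.77 to 3.08) those of heme on day 4, 3.69 times (3.57 to 3.81) on day 5 and 1.98 times (1.92 to 2.03) on day 7. On day 3 the control level was 1.17 times (1.07 to 1.29) that of the heme library. The control level was highest on day 5, whereas that of the heme library was still 1.52 times higher on day 7 than on day 5.

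Ccl3 and Ccl4, neighbours in the genome, followed each other in the control library and parted in the heme library. Ccl3 stood at 67.7, 84.0, 295, 448 and 303 CPM in the control cultures of days 0, 3, 4, 5 and 7. In the heme cultures it stood at 70.8, 108, 504, 435 and 256 CPM. The ratio of heme to control was 1.71 (1.67 to 1.75) on day 4, 0.972 (0.952 to 0.992) on day 5 and 0.844 (0.824 to 0.865) on day 7, so its level was highest a day earlier in the heme library. Ccl4 gave 67.3, 133, 518, 729 and 481 CPM in the control and 74.5, 154, 509, 632 and 208 CPM in the heme cultures. On day 5 its ratio of heme to control was 0.867, and 0.416 with the cell limits of the study. Its 2 libraries could not be told apart on day 4 (ratio 0.983, interval 0.963 to 1.00), and on day 7 the control level was 2.32 times (2.26 to 2.37) that of heme. Within the heme library Ccl4 on day 7 was at 0.329 times its day 5 level, and Ccl3 at 0.588 times.

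Ccl6 and Ccl9, which act through Ccr1, had higher heme than control levels on days 4 and 5 and lower ones on day 7. Ccl6 had the highest CPM of the 7 in all cultures, with 86.8, 878, 2348, 3883 and 5591 CPM in the control and 176, 906, 2678, 4965 and 4672 CPM in the heme cultures. The day 0 value of the heme library lies close to the 148 CPM of its erythroid cells. Its ratio of heme to control was 1.14 on day 4, 1.28 on day 5 and 0.836 on day 7; the day 4 value turned to 0.941 with TMM factors and to 0.910 with DESeq2 size factors. Ccl9 stood at 52.4, 120, 242, 372 and 769 CPM in the control and at 97.7, 148, 413, 878 and 623 CPM in the heme cultures. The heme level was 1.71 times (1.66 to 1.76) that of control on day 4, 2.36 times (2.31 to 2.41) on day 5 and 0.811 times (0.798 to 0.823) on day 7. With the cell limits of the study, which kept 2367 of 2699 control and 1908 of 2780 heme cells of day 5, the ratio of Ccl9 on that day was 1.27, and with DESeq2 size factors it was 2.00.

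Cxcl3, a ligand of Cxcr2, had the widest contrast between the libraries. It stood at 1.36, 3.07, 30.4, 34.5 and 117 CPM in the control cultures of days 0, 3, 4, 5 and 7, and at 8.00, 9.60, 255, 382 and 114 CPM in the heme cultures. The ratio of heme to control was 8.39 (7.86 to 8.97) on day 4, 11.1 (10.5 to 11.8) on day 5 and 0.973 (0.937 to 1.01) on day 7. From day 3 to day 4 its level was 26.6 times higher in the heme and 9.90 times in the control library. The day 3 ratio of 3.13 was taken between levels at or near the free RNA, and after subtraction of the erythroid level it turned to 0.503.

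Cxcl2, the other ligand of Cxcr2, stood at 3.50, 20.5, 99.1, 96.9 and 151 CPM in the control and at 13.4, 55.6, 296, 316 and 298 CPM in the heme cultures. The heme level was 2.98 times (2.87 to 3.10) that of control on day 4, 3.26 times (3.14 to 3.38) on day 5 and 1.97 times (1.91 to 2.03) on day 7. However, Cxcl2 was already 2.71 times (2.50 to 2.93) higher in the heme library on day 3, before heme was added, and 2.33 times higher after subtraction of the erythroid level. Divided by the day 3 ratio, the later ratios were 1.10, 1.20 and 0.728. The Cxcl2 difference was thus present between the unexposed cultures too, and exposure and library cannot be told apart for it. The sources used here do not state whether the day 0 and day 3 cells of the libraries came from separate cultures. For Cxcl3 the same division left 2.68 on day 4, 3.55 on day 5 and 0.311 on day 7, with a day 3 ratio that rests on levels near the free RNA.

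**Figure D2:**
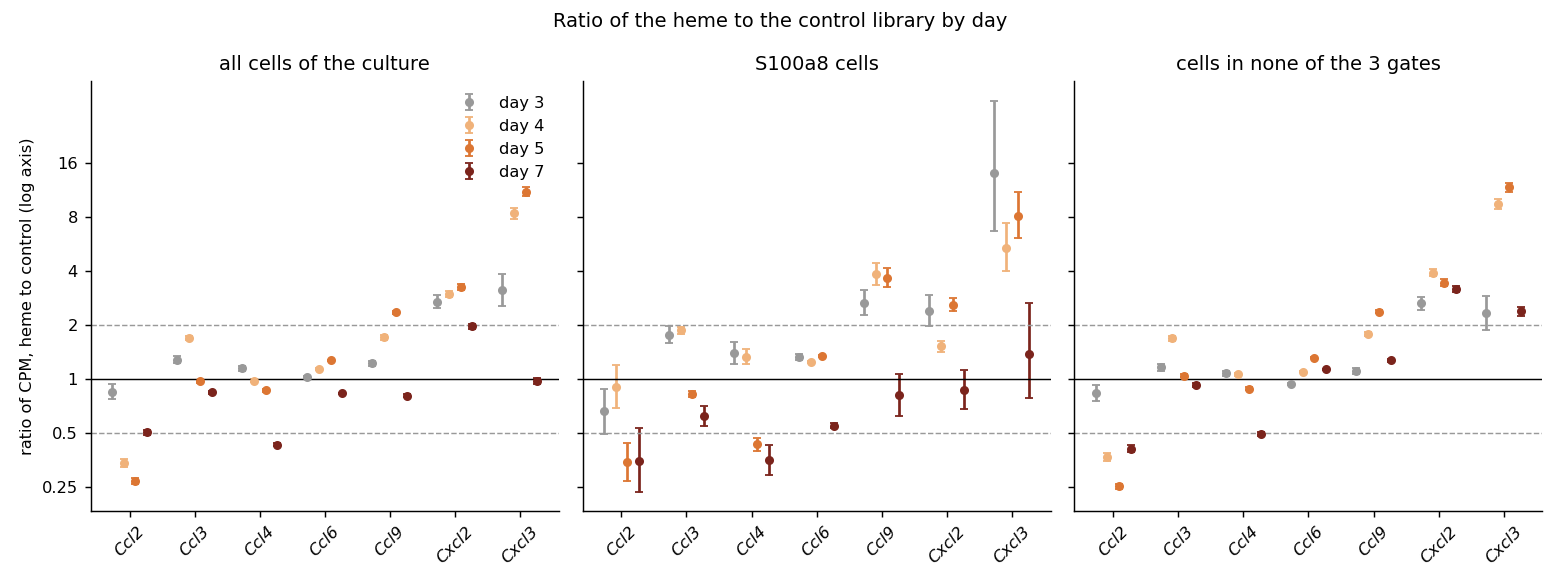
Ratio of CPM in the heme to the control library (log axis) for each chemokine on days 3 to 7, in all cells, in S100a8 cells and in cells of none of the 3 gates, with 95% exact intervals; the dashed lines mark 2-fold. Cxcl3 stands at 8.39 and 11.1 on days 4 and 5 in all cells and at 0.973 on day 7. In cells outside the gates it is at 2.39 on day 7, where the Arg1 gate has taken out control cells high in Cxcl3.

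To see in which cells the chemokines were found, cells were gated on a single gene each: S100a8, a calcium-binding protein that fills neutrophils (3% or more of the UMIs of a cell), Arg1, arginase of alternatively activated macrophages (2 or more UMIs), and Marco, a scavenger receptor of macrophages (3 or more UMIs). In the control library, 941, 1396, 1256 and 104 cells of days 3, 4, 5 and 7 passed the S100a8 gate, and 1442, 2113, 1346 and 398 cells did in the heme library. On each day from 4 to 7, 9 or 10 of 10 neutrophil markers were at least 2-fold higher in the S100a8 cells than in the other cells of the culture. The gate gene S100a8 is itself 1 of the 10, so its place in this count was given. Of the control cells of day 7, 396 passed the Arg1 gate, against 14 heme cells. The Marco gate took 36, 91 and 1107 heme cells of days 4, 5 and 7 and at most 14 control cells of any day. The Arg1 cells carried 1679 CPM of Fn1 and 677 CPM of Ccr2, and the Marco cells 387 CPM of Mrc1 and 138 CPM of Spic, a transcription factor of red pulp macrophages. The fixed list of 11 macrophage markers includes both gate genes. In Arg1 cells of day 7, 3 of them were at least 2-fold higher and 1 lower than in the other control cells. In Marco cells of day 7, 5 were higher and 1 lower than in the other heme cells. Of 4 monocyte markers, 2 were higher in Arg1 cells and 2 lower in Marco cells. As the gates count UMIs, deeper cells pass more easily: the median was 20060 UMIs in Marco cells of day 7 and 15319.5 in the heme cells outside all gates.

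In S100a8 cells, Ccl6 and Ccl3 were the leading members from day 4 on, and the other 5 stood at 316 CPM or less. Ccl6 stood at 347, 1900, 5307 and 8817 CPM in control S100a8 cells of days 3, 4, 5 and 7, and at 461, 2372, 7153 and 4867 CPM in those of the heme library. Ccl3 stood at 180, 540 and 593 CPM in control and at 339, 446 and 370 CPM in heme S100a8 cells of days 4, 5 and 7. On day 4 both genes were lower in control S100a8 cells than in control cells outside the gates, at 0.702 times for Ccl6 and 0.464 times for Ccl3. On day 5 both genes were higher in control S100a8 cells than in control cells outside the gates, by 1.57 times for Ccl6 and 1.30 times for Ccl3. In the heme library the day 5 ratio was 1.61 for Ccl6 and 1.02 (0.988 to 1.05) for Ccl3, and on day 7 Ccl6 was lower in S100a8 cells, at 0.849 times. The other 5 members showed the reverse in the control library on day 5. Control cells outside the gates held 18.7 times as much Ccl2 and 12.5 times as much Ccl9 as the S100a8 cells. For Cxcl3, Ccl4 and Cxcl2 they held 6.76, 4.86 and 1.13 times as much.

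Between the libraries, 3 members (Ccl9, Cxcl2 and Cxcl3) were at least 2-fold higher in heme S100a8 cells on day 5 (11.5% of all genes) and 2 members (Ccl2 and Ccl4) were at least 2-fold lower (1.69%). Ccl9 was 3.67 times (3.25 to 4.16) higher there on day 5 and 3.86 times on day 4, from 37.4 and 16.6 CPM in the control cells. Cxcl3 stood at 49.9 CPM in heme and 6.13 CPM in control S100a8 cells of day 5, a ratio of 8.14 (6.12 to 11.0). On day 3, before the exposure, the same 3 members were at least 2-fold higher in heme S100a8 cells (15.2% of all genes) and none was lower (0.365%). The 7.43 CPM of Cxcl3 in heme S100a8 cells lay below the 8.74 CPM of the erythroid cells, and the ratio of 14.2 rested on 7 control UMIs. On day 7, 2 members, Ccl2 and Ccl4, were at least 2-fold lower in heme S100a8 cells (3.28% of all genes) and none was 2-fold higher (22.4%), with only 104 control cells behind these values; on day 4, 2 members, Ccl9 and Cxcl3, were at least 2-fold higher (17.2%) and none was lower (0.655%).

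The Arg1 cells of the control culture of day 7 held the high levels of both Cxcr2 ligands. Cxcl2 stood at 497 CPM in Arg1 cells and at 83.9 CPM in control cells outside the gates, a ratio of 5.93 (5.64 to 6.23). Cxcl3 stood at 440 and 52.2 CPM in these cells, a ratio of 8.44 (7.96 to 8.95). The other members differed less, with Ccl9 at 1.77 times, Ccl6 at 1.58 times, Ccl2 at 1.37 times, Ccl3 at 1.18 times and Ccl4 at 0.727 times the level outside the gates. These cells made up 12.5% of the culture and 15.6% of its UMIs and carried 51.9% of the Cxcl2 and 59.2% of the Cxcl3 UMIs, counting cells inside this gate alone. With stricter gates, at 5 Arg1 UMIs, Cxcl3 alone stayed above 50%.

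In the Marco cells of the heme culture of day 7, the ratios to cells outside the gates did not repeat this pattern. Cxcl2 stood at 351 CPM in Marco cells and at 267 CPM in heme cells outside the gates, a ratio of 1.31 (1.27 to 1.35), and Cxcl3 at 113 and 125 CPM. Ccl2 was the member with the largest ratio, 204 against 115 CPM (1.78, interval 1.70 to 1.86). Ccl9 (445 against 873 CPM) and Ccl6 (3523 against 5735 CPM) were lower in Marco cells, by 1.96 and 1.63 times. The cells compared with were unlike, as Cxcl2 outside the gates stood at 83.9 CPM in control and 267 CPM in heme. Between the gates, Cxcl2 was 1.42 times (1.36 to 1.48) and Cxcl3 3.89 times (3.69 to 4.10) higher in control Arg1 cells than in heme Marco cells. The Marco cells, 37.4% of the culture and 44.4% of its UMIs, carried 61.2% of the Ccl2 and 52.4% of the Cxcl2 UMIs.

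**Figure D3:**
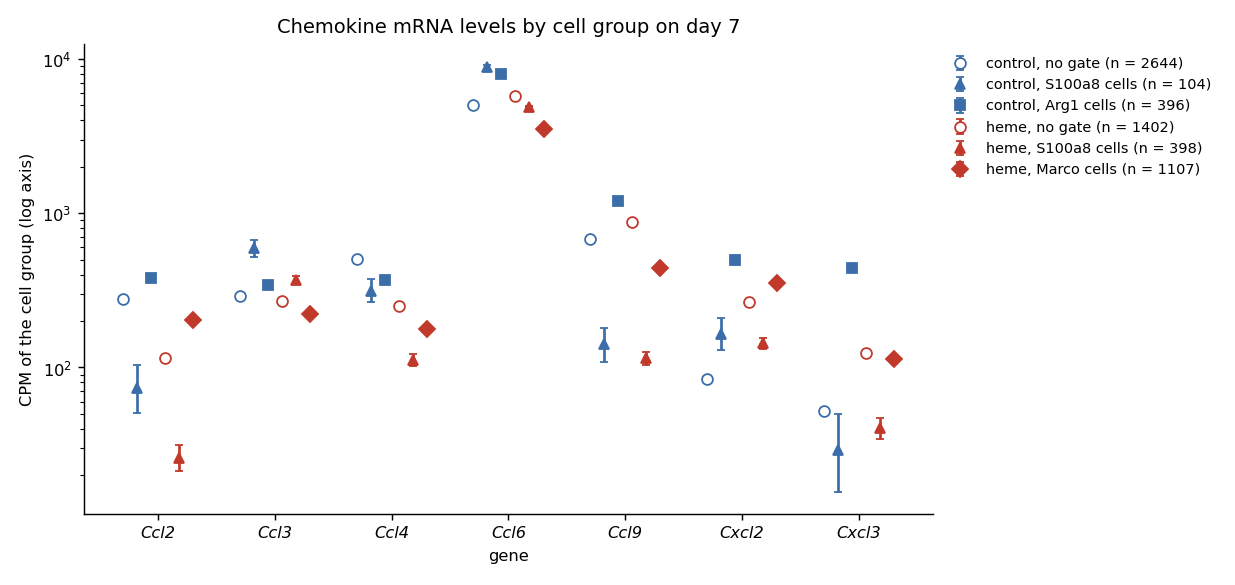
Levels in CPM (log axis) of each chemokine in 6 groups of cells on day 7, with 95% Poisson intervals and the number of cells in the legend; blue is the control and red the heme library. Cxcl2 and Cxcl3 stand at 497 and 440 CPM in control Arg1 cells, above all other groups shown.

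Most of the Cxcl3 of days 4 and 5 lay outside all 3 gates in both libraries. Cells in none of the gates carried 92.9% of the Cxcl3 UMIs in the heme culture of day 4 and 92.7% in that of day 5, with 47.7% and 72.9% of all UMIs. In the control cultures they carried 94.8% and 90.3% on these days, with 55.0% and 75.1% of all UMIs. Their level was 497 and 486 CPM on days 4 and 5, against 52.4 and 41.5 CPM in such control cells. On day 3, before the exposure, 2 members (Cxcl2 and Cxcl3) were at least 2-fold higher in the heme cells outside the gates (5.27% of all genes) and none was lower (0.447%). In this compartment 2 members (Cxcl2 and Cxcl3) were at least 2-fold higher on day 4 (11.7% of all genes) and Ccl2 was 2-fold lower (1.97%). On day 5, Ccl9 was 2-fold higher as well (11% of all genes), and Ccl2 was again the 1 member lower (3.87%). On day 7, Cxcl2 (3.19 times) and Cxcl3 (2.39 times) were at least 2-fold higher (14.4%), and Ccl2 and Ccl4 were at least 2-fold lower (6.84%). These day 7 ratios depend on what the gates took out. The Arg1 gate removed control cells with 5.93 times the Cxcl2 and 8.44 times the Cxcl3 level of those left. The Marco gate removed heme cells with 1.31 and 0.905 times the level of those left. The values thus do not show that a difference lasted in the same cells. Whole cultures and this compartment therefore differed on day 7 for Cxcl3 (ratios 0.973 and 2.39), Ccl6 (0.836 and 1.14) and Ccl9 (0.811 and 1.28).

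The cells outside the gates were a mixture that was not the same in both libraries. On day 4 they held 8 of 11 macrophage markers at least 2-fold above the other cells in both libraries, together with 7 (control) and 8 (heme) of 8 dendritic cell markers. For the macrophage markers this count was 6 in control and 2 in heme on day 5 and 1 in each library on day 7, when 4 were at least 2-fold lower in each. Arg1 and Marco, which the gates largely take out, are among the 11. The other cells were mostly S100a8 cells on days 4 and 5 but mostly Arg1 or Marco cells on day 7. Summed macrophage markers stood at 597 CPM in control and 843 CPM in heme cells outside the gates on day 4. These sums were 584 and 919 CPM on day 5 and 1035 and 1130 CPM on day 7. Summed dendritic cell markers stood at 7601 and 6147 CPM on day 4 and at 14192 and 5519 CPM on day 7. The part of this shift in cell makeup in the ratios was not tested, and in whole cultures fewer cells of a type and less RNA per cell cannot be told apart.

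**Figure D4:**
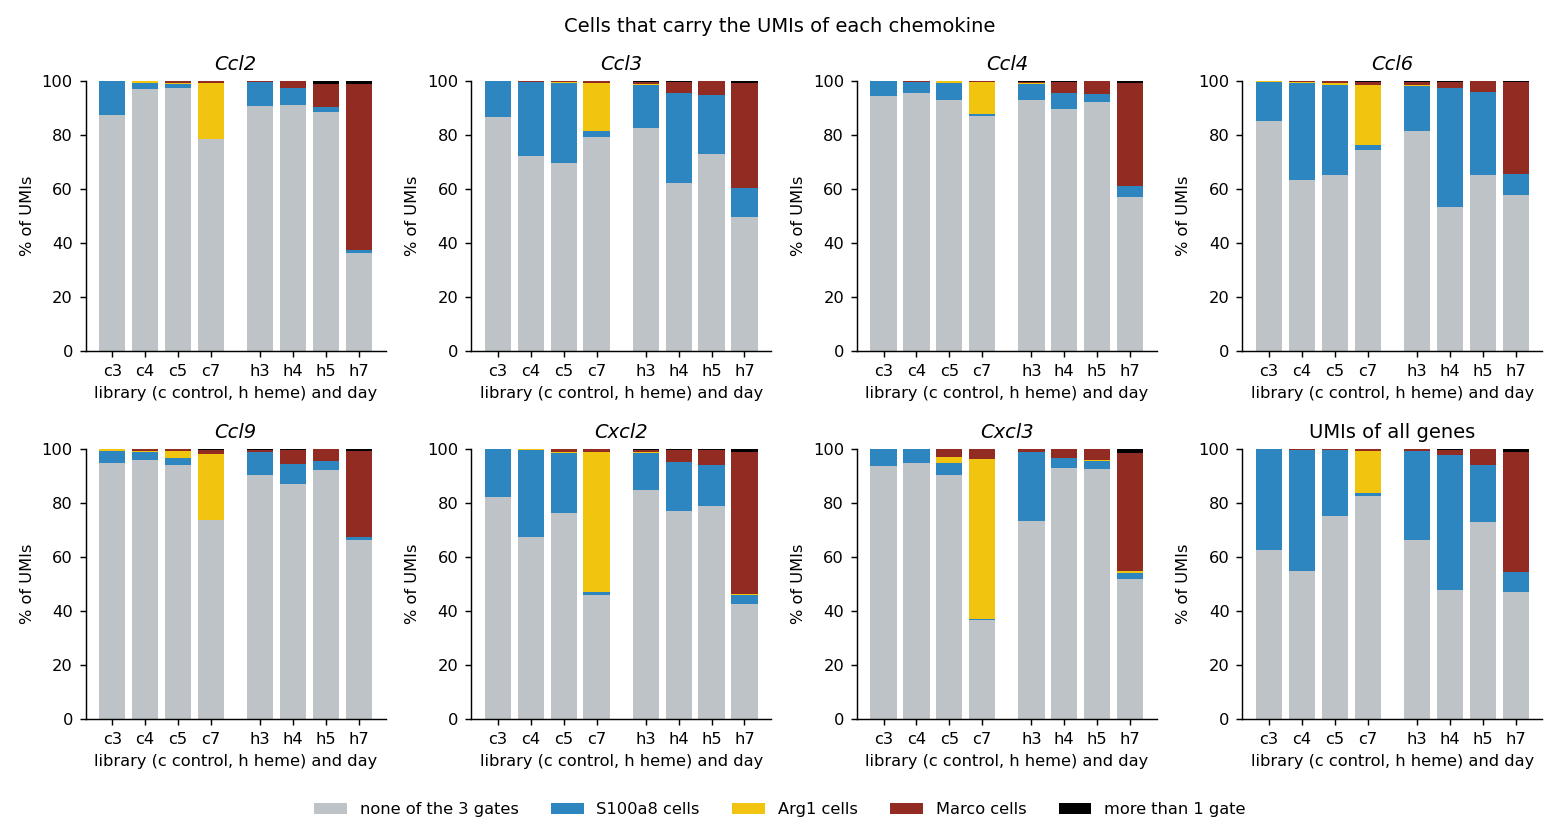
Share of the UMIs of each chemokine, and of all genes, carried by cells inside 1 gate alone, inside more than 1 gate, or in none, for the control (c) and heme (h) cultures of days 3, 4, 5 and 7. Arg1 cells carry over 50% of Cxcl2 and Cxcl3 in the control culture of day 7, and the grey part holds over 90% of Cxcl3 on days 4 and 5 in both libraries.

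Among other cells, those of day 0 with 2 or more UMIs of Mcpt8, a basophil protease, were rich in Ccl3 and Ccl4. They held 1031 CPM of Ccl3 and 628 CPM of Ccl4 in the control (131 cells) and 472 and 379 CPM in the heme library (178 cells), both before any exposure. The 646 cells of control day 7 with 2 or more UMIs of Ccr7, a receptor of mature dendritic cells, were low in the members, with 28.0 CPM of Ccl2, 43.6 CPM of Ccl3, 69.9 CPM of Ccl4 and 24.0 CPM of Cxcl2. Ccl6, at 839 CPM, was the only member above 300 CPM there. The 335 cells of control day 3 with 10 or more UMIs of Mpo, a granule enzyme of granulocyte progenitors, had 2.69 CPM of Cxcl2 and 3.68 CPM of Ccl2, below the 3.23 and 5.42 CPM of the erythroid cells.

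How evenly the cells shared a chemokine differed widely between members. Each cell was thinned to 3000 UMIs so that depth was equal, and cells with fewer (79 to 374 in a culture) were left out. Ccl6 was then found in 61.7% (control) and 71.0% (heme) of the cells of day 3 and in 82.9% to 96.5% of those of days 4 to 7, against 88.8% to 98.6% without thinning on days 3 to 7. Cxcl3 was found in 1.98%, 3.31% and 9.32% of thinned control cells of days 4, 5 and 7 and in 12.2%, 20.5% and 15.8% of thinned heme cells. Unthinned shares of Cxcl3 were 6.23%, 6.63% and 14.2% in control and 22.9%, 34.1% and 33.9% in heme cells. The same thinning left Cxcl3 in 0.624% of control and 1.21% of heme erythroid cells, and Ccl6 in 15.0% and 37.3%, values that mark the share free RNA alone may give. On day 7, therefore, more heme than control cells had a Cxcl3 UMI although the CPM could not be told apart.

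The UMIs of some members sat in few cells. The 1% of cells with most Cxcl3 held 77.2% of its UMIs in control cells and 44.9% in heme cells of day 4, and 42.5% and 28.0% on day 7. For Ccl4 the top 1% of cells held 32.9% to 43.2% of the UMIs on days 4 to 7, and for Ccl6 7.22% to 11.5%. A heme cell of day 4 carried 1036 UMIs of Ccl3, and one of day 5 carried 695 UMIs of Cxcl3. Ccl2 was most even in the heme culture of day 7, where the top 1% held 19.6% of its UMIs and 43.7% of all cells had a UMI, against 33.2% and 29.2% in the control. After thinning, 21.5% of heme and 17.8% of control cells of day 7 had a Ccl2 UMI.

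Within cells outside the gates, members were found together more often than the product of their shares. On control day 7, Cxcl2 and Cxcl3 shared 74 of 2392 thinned cells, 5.50 times the product of their shares, and on heme day 7 they shared 117 of 1250 cells, 1.87 times the product. Ccl3 and Ccl4 shared 302 control cells of day 7, 2.69 times the product, and 167 heme cells, 1.61 times. Pairs of ligands for different receptors were as high on control day 7, with 2.71 for Ccl2 and Cxcl3 and 2.63 for Ccl2 and Ccl4, while Ccl6 and Ccl9 gave 1.14. In this mixture of cell types, cells of 1 type can raise such a count without a link inside the type. The ratio to the product also cannot exceed 1 divided by the larger share, so common members leave less room. Outside the gates on day 7, Cxcl2 was found in 10.1% of thinned control and 32.2% of thinned heme cells, and Ccl6 in 82.0% and 95.1%. These ratios are therefore not comparable between libraries or between pairs with unlike shares. All 21 pairs of members stood above 1 in each of the 6 cultures of days 4 to 7, and pairs with Ccl6, which nearly all cells had, lay between 1.01 and 1.22.

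The chemokines outside the 7 were described from a list of 29, of which 27 had a single row and 15 had 20 or more UMIs on day 7. Of these, 3 were at least 2-fold higher and 8 at least 2-fold lower in the heme library on day 7, with a median of -1.30 on the log2 scale, against 0.30 over all genes tested, of which 15.2% were higher and 7.32% lower. Ccl17, a ligand of Ccr4 made by dendritic cells, stood at 5081 CPM in control and 244 CPM in heme. Ccl22, which shares that receptor, stood at 610 and 70.0 CPM, Ccl5 at 866 and 96.7 CPM and Cx3cl1 at 10.7 and 1.27 CPM. Higher in the heme library were 2 more Cxcr2 ligands. Ppbp stood at 5.55 CPM in control and 29.0 CPM in heme on day 7 and at 7.18 and 183 CPM on day 5, but on day 0, before any exposure, it already stood at 6.11 and 30.6 CPM, and on day 3 at 9.07 and 9.56 CPM. Cxcl5 stood at 0.191 and 9.13 CPM on day 7 and at 0.115 and 27.4 CPM on day 5. The control values rest on 8 and 4 UMIs and lie near the floor. Before the exposure its ratio was 3.06 (1.12 to 10.4) on day 0, from 5 control and 20 heme UMIs. On day 3 it was 2.37 (1.15 to 5.52), from 9 and 45 UMIs. Cxcl1, the neighbour of Cxcl2 and Cxcl3, was low, with 0.689 CPM in control and 2.71 CPM in heme on day 5. Ccl7, the neighbour of Ccl2 and a ligand of Ccr2 too, had 14.0 CPM in control and 5.10 CPM in heme on day 5, a ratio of 0.363 (0.311 to 0.422), beside 0.271 for Ccl2. On other days the 2 genes were less alike. The ratio of Ccl7 was 2.49 (1.79 to 3.54) on day 3, before the exposure, 0.901 (0.735 to 1.11) on day 4 and 0.661 on day 7. For Ccl2 these ratios were 0.852, 0.342 and 0.506.

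The receptors Ccr2 and Cxcr2 were measured in the same cells. Ccr2, which reads Ccl2, stood at 167, 202 and 426 CPM in the control and at 106, 129 and 147 CPM in the heme cultures of days 4, 5 and 7. Cxcr2, which reads Cxcl2 and Cxcl3, stood at 16.4, 10.4 and 2.74 CPM in the control and at 28.0, 26.3 and 6.61 CPM in the heme cultures. Ccl2 and its receptor were thus both lower, and the Cxcr2 pair both higher, in the heme library on days 4 and 5, while S100a8 cells, which held 31.2 CPM of Cxcr2 on control day 4 against 4.43 CPM in the other cells, made up 60.4% of control and 67.2% of heme cells on day 4 and 46.5% and 48.4% on day 5.

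Of 24 NF-kB and early response genes, all of which had 20 or more UMIs, 2 were at least 2-fold higher on day 4 and 1 on day 5, and none was 2-fold lower on these days. Of all genes, 11.1% and 10.5% were higher and 1.67% and 3.56% lower on days 4 and 5. On day 7, 6 were higher and 2 lower, where 15.2% and 7.32% of all genes were, and the median was 0.07 on the log2 scale against 0.30 over all genes. Tnf, an inflammatory cytokine, stood at 103, 99.8 and 40.9 CPM in control and at 141, 124 and 136 CPM in heme on days 4, 5 and 7. Nfkbia, the inhibitor that NF-kB itself switches on, stood at 299, 291 and 327 CPM in control and at 306, 246 and 199 CPM in heme. Il1b (64.4, 69.9 and 100.1 CPM in control; 87.5, 67.3 and 67.6 CPM in heme) stayed within 1.5-fold. Relb (59.4 and 22.4 CPM) and Rel (111 and 52.6 CPM), both NF-kB subunits, were the genes at least 2-fold lower on day 7, and Fos (13.6 and 55.4 CPM) had the largest ratio. On day 5 the median of this list was -0.08 on the log2 scale, against 0.25 over all genes. A link between this list and the Cxcl3 difference was not tested.

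Finally, 7764 genes that reached 20 CPM in any culture were compared with each member over the 10 cultures, as the correlation of log2(CPM + 1). Cxcl3 was most like Dusp6 (r = 0.976), Cd36 (0.970) and Map4k4 (0.964). Cxcl2 was most like Cdk18 (0.988), Atf3 (0.987) and Slc7a11 (0.987), of which Atf3 is a stress-induced transcription factor and Slc7a11 a cystine transporter. Ccl2 was most like Stard3nl (0.980), Sertad1 (0.972) and Atox1 (0.968), and Ccl3 like Irak2 (0.973), Acod1 (0.969) and Ccl4 (0.957). Ccl4 was most like Cstdc4 (0.972), Pdgfa (0.971) and Ptx3 (0.968), Ccl6 like Anxa4, Adam8 and Synpo (0.994 to 0.995), and Ccl9 like Lgmn, Smim3 and Anpep (0.986 to 0.989). Within the 7, Ccl3 and Ccl4 had r = 0.957 and Ccl2 and Cxcl3 had r = 0.680, the lowest of the 21 pairs. The 10 points share 2 libraries and a common course over the days, so these values describe the cultures and carry no test.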

How the data were processed

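The libraries had been prepared with a droplet kit for 3′ ends of transcripts (10x, v3.1). What the authors deposited are UMI counts of genes in each barcode, without normalization. They had run Cell Ranger on GRCm38.p6, in version 4.0.0 per the labels and 5.0.0 per the file headers, and the annotation is not given in the sources used here. The deposited tag calls came from Seurat 3.2.3 and were used as they stand: only barcodes called Singlet were counted, which leaves pairs of cells with 1 tag in the data.

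Counts were summed per culture or gate and divided by the total (CPM). Poisson intervals, exact conditional intervals for ratios and Clopper-Pearson intervals for shares are at the 95% level, and a count of 0 would allow 3 counts. A gene counted as different at 2-fold if the cultures of a day summed to at least 20 UMIs. No gate with under 50 cells was compared. Ratios and thinning were tested on simulated data. Alternatives used the limits of the study (500 to 5000 genes, under 15% mitochondrial and under 30% ribosomal UMIs), TMM factors of edgeR 4.0.16 and size factors of DESeq2 1.42.0 (R 4.3.3, scipy 1.17.1, pandas 2.3.3). As written, the study's text excludes cells below these last limits, which were read here as upper limits. Genes were named by this rule: all 7 members, a few fixed genes, up to 6 per list with 100 or more UMIs beyond 2-fold on day 7, and 3 most similar genes per member. The members, gates and lists were chosen with earlier results of these data known. With 1 library per group no test was possible, and no p-value is given.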

Additional observations from a re-analysis of the deposited data

Results flagged for a closer look

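Ccl3, Ccl6 and Ccl9 had ratios of heme to control on opposite sides of 1 on different days after the exposure, with intervals that exclude 1. For Ccl3 the ratio was 1.71 on day 4, 0.972 on day 5 and 0.844 on day 7. For Ccl6 it was 1.14 on day 4, 1.28 on day 5 and 0.836 on day 7. For Ccl9 it was 1.71 on day 4, 2.36 on day 5 and 0.811 on day 7. These intervals cover counting error only and leave out that UMIs sit in few cells. On day 4 the top 1% of heme cells held 26.1% of the Ccl3 UMIs, and the day 5 ratio of Ccl3 lies close to 1. The difference between days was not tested, since each day was 1 culture per library. In cells outside the 3 gates the day 7 ratios were 0.928 for Ccl3, 1.14 for Ccl6 and 1.28 for Ccl9.

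Barcodes with several tags were left out of the comparisons. Among them, 1259 in the control and 1996 in the heme library, Cxcl2 stood at 73.7 and 184 CPM (ratio 2.50) and Cxcl3 at 32.7 and 164 CPM (ratio 5.03). In the 652 and 1218 barcodes without a tag, Cxcl3 stood at 41.6 CPM in control and 14.2 CPM in heme, a ratio of 0.341, while Cxcl2 had a ratio of 1.26 (0.947 to 1.71). Neither set of barcodes was split by day, so unexposed cells are not set apart. The mix of days in each library is not known, and these ratios cannot be set beside those of single days.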

How the results depend on the processing

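No paired analysis was possible because each group is 1 library. The counts of members beyond 2-fold in whole cultures moved as follows. On day 3, subtracting the level in day 0 erythroid cells left 1 member higher, and the Cxcl3 ratio turned from 3.13 to 0.503. Dividing by the day 3 ratio left 1 member higher on day 4 and 1 on day 5. On day 5 the cell limits of the study gave 2 members lower, with Ccl4 at 0.416. On day 7, leaving the 20 highest genes out of the total gave 1 member higher, and 2 members were lower with the study limits, TMM factors, DESeq2 size factors, the mean of single-cell CPM or division by the day 3 ratio.

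In S100a8 cells, subtraction left 1 member higher on day 3. On day 7, stricter gates gave 1 higher and thinned cells gave 1 lower. With thinning, 1 member had a lower share of cells in heme on day 7. Stricter gates left 1 member with over 50% of its UMIs in Arg1 cells of the control and 1 in Marco cells of the heme culture of day 7.

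Over all genes, dropping the filter on low counts gave 3024, 3634, 3424 and 3919 higher and 896, 960, 1386 and 2047 lower genes on days 3, 4, 5 and 7. TMM factors gave 378, 860 and 1360 higher on days 3, 4 and 7 and 148 and 432 lower on days 3 and 4. For the lists, 100 or more UMIs left 2 other chemokines higher and 1 lower on day 3, and TMM factors left 0 higher. TMM factors also left 0 chemokine receptors higher on day 7 and 0 NF-kB genes higher on day 3, and gave 1 NF-kB gene lower on day 5 and 3 higher and 5 lower on day 7. TMM and DESeq2 factors lowered log2 ratios by 0.22 to 0.35. Of the 21 genes most like a member, 4 stayed with Spearman correlation.

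Among the 28 ratios of whole cultures, 7 changed direction under at least 1 alternative, in 15 of 245 values. The ratio of Cxcl3 ranged from 2.68 to 8.48 on day 4 and from 3.55 to 11.3 on day 5, and that of Ccl2 from 0.158 to 0.318 on day 5. The subtraction and the removal of barcodes found in both libraries were chosen after seeing the data. Depth limits Cxcl3 in control S100a8 cells, with 7 to 52 UMIs per culture.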
